A study of Homo sapiens with 12 samples.

Results

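The SR proteins and the heterogeneous nuclear ribonucleoproteins (hnRNPs) were taken as the protein-coding genes whose symbol is SRSF followed by a number or begins with HNRNP. The rule found 35 genes, 11 SRSF and 24 HNRNP, among the 19012 protein-coding genes of the 54127 gene identifiers counted. SRSF8 and HNRNPCL2 also have such symbols and were not analysed here, and 106 matching genes that do not code for protein, of which 105 are pseudogenes, were left out. The measurements were RNAseq of C4-2 cells, a castration-resistant line derived from LNCaP prostate cancer cells, in 12 samples. In 6 samples the cells received the vehicle DMSO, and in 6 they received 1 µM PBKi for 6 h, the compound HI-TOPK-032, which inhibits the kinase PBK. All samples are of this one line, and per the labels RNA was taken from flow sorted cells. No source used here says whether replicates were separate cultures, so the p-values measure the spread between these samples, which may be technical.

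SR proteins bind exonic enhancer sequences through RNA recognition motifs and recruit the spliceosome through a tail rich in arginine and serine, whose phosphorylation by SRPK and CLK kinases sets their location and activity. hnRNPs coat nascent transcripts, often oppose exon inclusion, and also act in RNA export, stability and translation. Many genes of both families limit their own level by splicing into an isoform that nonsense-mediated decay removes. Counts per gene cannot tell isoforms apart, and in bulk RNA fewer cells of a kind and less RNA per cell cannot be told apart.

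Counts were summed over the sequencing lanes of each sample, and 9663203 to 28029908 reads lay on genes. The share of reads outside any gene was 5.74% to 6.96% for DMSO samples and 5.94% to 9.30% for PBKi samples, highest for PBKi replicates 3 and 6. Markers of prostate luminal epithelium summed to 4639 to 5555 CPM (the count scaled to TMM-normalised library size) in DMSO and 2509 to 3332 CPM in PBKi, with 4 of 8 lower and 1 higher. Those that fell included KLK3 and KLK2, which are also androgen receptor target genes, and the part of this shift in the values that follow was not tested. Reads that matched more than 1 gene were 3.87% to 4.10% in DMSO and 4.16% to 4.35% in PBKi. They were counted for no gene, and the part of this loss in the values was likewise not tested. Immune markers summed to at most 0.738 CPM, fibroblast markers to 19.3 to 26.1 CPM and endothelial markers to 3.14 to 7.25 CPM over both groups, and no marker present in the files was at 0 in every sample. The transcript of PBK, the target of the inhibitor, averaged 219 ± 37.2 CPM in DMSO against 165 ± 15.1 CPM in PBKi (SD, n = 6 each). Replicates 1 to 3 stood apart from replicates 4 to 6 in both groups on the second principal component, which held 9.76% of the variance, so values are also given within each set of 3 against 3.

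Of the 35 genes, 32 had at least 10 counts in at least 6 samples and were tested. In PBKi 15 of them were lower and 1, HNRNPH2, was higher, by the quasi-likelihood test of edgeR with Benjamini-Hochberg adjusted p under 0.05 over all 14505 genes tested. The other 16 did not pass. In this comparison 21.5% of all genes tested were lower in PBKi and 20.1% were higher, 41.7% in all, beside 46.9% of the members lower and 50% called in either direction. Among the 5796 genes of at least 40 CPM in DMSO, a level that 30 members reached, 30.5% were lower and 15.9% higher. The log2 fold change was negative in 28 of the 32 members, in 51.9% of all genes tested and in 3493 of the 5796 genes of at least 40 CPM. Its median was -0.13 over the members, -0.06 over genes of at least 40 CPM and -0.01 over all genes tested. HNRNPA2B1 fell by 25.7%, the most of the 15, and HNRNPK fell by 8.06%, the least. With scaling by library size alone, in place of TMM factors, 40% of all calls were lower against 51.7% with TMM. In that setting 2402 of all 14505 genes tested were lower and 3602 higher. Of the 32 members 8 were lower and 3 higher, the last being HNRNPH2, HNRNPH3 and HNRNPU.

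**Figure D1:**
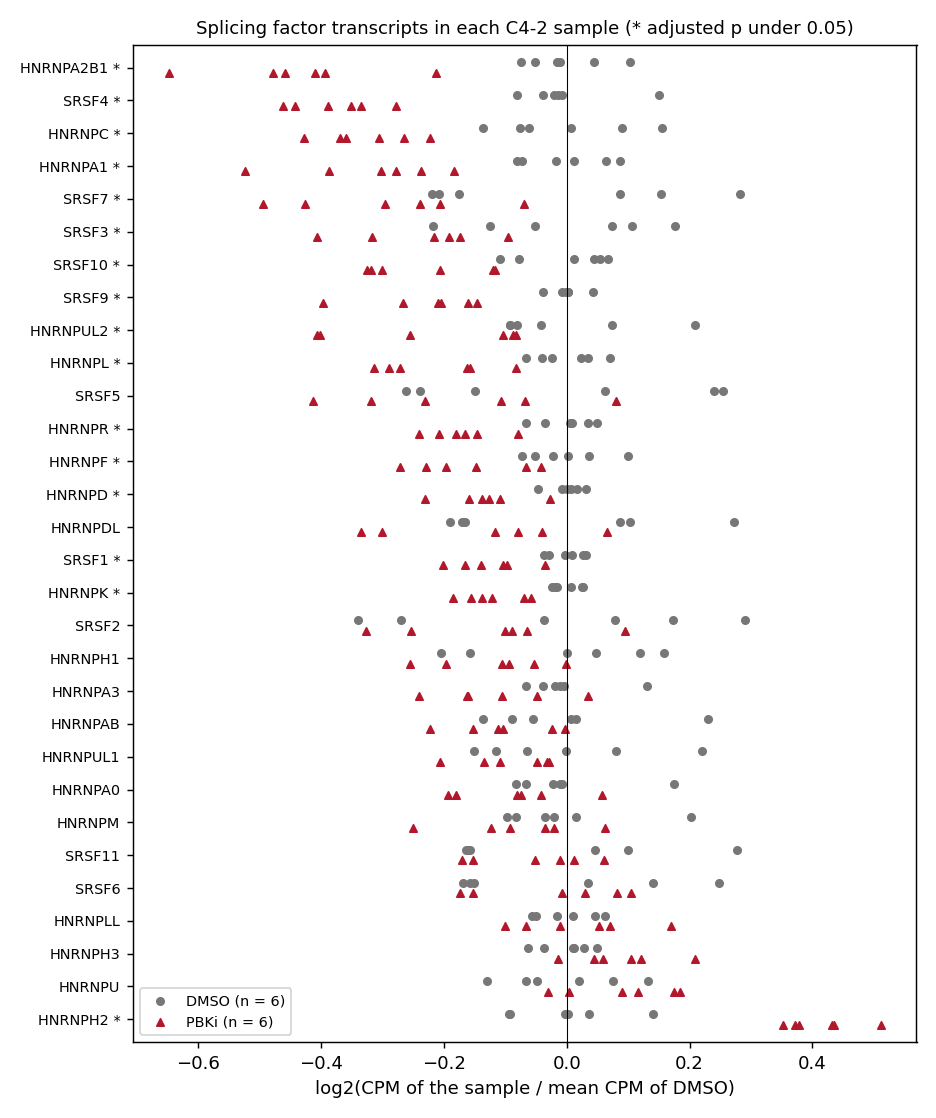
Each point is 1 sample of 1 gene, placed by the log2 of its CPM over the mean CPM of the 6 DMSO samples, for the 30 members of at least 40 CPM, ordered by fold change. The 6 PBKi samples (triangles) of HNRNPA2B1, SRSF4, HNRNPC and HNRNPA1 lay left of all 6 DMSO samples (circles), those of HNRNPH2 lay right of them, and a star marks an adjusted p under 0.05.

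The values of all 6 PBKi samples lay below all 6 DMSO samples in 9 members and above them in 1, beside 9.68% and 10.5% of all genes tested. Among the 5796 genes of at least 40 CPM in DMSO, they lay below in 876 and above in 476. The 9 were HNRNPA2B1, SRSF4, HNRNPC, HNRNPA1, SRSF10, SRSF9, HNRNPL, HNRNPR and HNRNPK. Groups overlapped in the other 6 that passed the test, SRSF7, SRSF3, HNRNPUL2, HNRNPF, HNRNPD and SRSF1. Among PBKi samples, replicate 3 was the lowest in 17 of the 32 members and replicate 5 or replicate 1 the highest in 15 and 12.

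To show the genes of the largest changes beside their sequence, the 250 bases before the transcription start are given for HNRNPH2, the gene that rose, and for HNRNPA2B1, SRSF4 and HNRNPC, the 3 largest falls. They are from RefSeq on GRCh38.p14 and are written 5′ to 3′ along the gene, with capitals for 5 motifs searched on both strands, which do not contain one another. These were the E-box CACGTG, the ETS motif CCGGAA, the letters CCAAT, the GC box GGGCGG, and TGACG from the cyclic AMP response element.
HNRNPH2, chrX:101407972-101408221, plus strand: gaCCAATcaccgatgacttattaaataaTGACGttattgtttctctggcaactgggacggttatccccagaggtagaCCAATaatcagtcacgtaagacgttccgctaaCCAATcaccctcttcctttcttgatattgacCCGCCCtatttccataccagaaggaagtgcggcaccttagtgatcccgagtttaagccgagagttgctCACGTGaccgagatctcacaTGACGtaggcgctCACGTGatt
HNRNPA2B1, chr7:26200747-26200996, minus strand: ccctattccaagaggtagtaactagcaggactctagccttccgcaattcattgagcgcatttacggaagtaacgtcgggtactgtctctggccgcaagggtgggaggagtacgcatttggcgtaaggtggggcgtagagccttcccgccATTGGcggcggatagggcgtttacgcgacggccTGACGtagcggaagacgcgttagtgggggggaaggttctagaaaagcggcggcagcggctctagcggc
SRSF4, chr1:29181901-29182150, minus strand: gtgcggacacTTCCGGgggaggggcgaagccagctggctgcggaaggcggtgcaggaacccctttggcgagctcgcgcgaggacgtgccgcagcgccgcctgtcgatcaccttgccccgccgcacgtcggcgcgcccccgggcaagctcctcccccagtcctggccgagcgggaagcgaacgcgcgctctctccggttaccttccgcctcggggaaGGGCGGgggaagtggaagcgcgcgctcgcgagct
HNRNPC, chr14:21269443-21269692, minus strand: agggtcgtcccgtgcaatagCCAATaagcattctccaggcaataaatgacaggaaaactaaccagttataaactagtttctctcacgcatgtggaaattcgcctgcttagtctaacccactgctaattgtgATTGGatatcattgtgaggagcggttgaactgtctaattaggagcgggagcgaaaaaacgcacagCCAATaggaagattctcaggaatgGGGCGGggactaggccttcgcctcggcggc
The HNRNPH2 promoter held 2 E-box matches, and 0.535% of all 35116 promoters held 2 or more. It also held 3 CCAAT boxes, 1 GC box and 2 TGACG matches. The HNRNPA2B1 promoter held 1 CCAAT box and 1 TGACG match, that of SRSF4 held 1 ETS match and 1 GC box, and that of HNRNPC held 3 CCAAT boxes and 1 GC box. RefSeq promoters were matched for 32 of the 35 members, 45 promoters in all. CCAAT was found in 21 of these 45 (32% of all promoters), GGGCGG in 28 (42.6% of all), TGACG in 20 (21.2% of all), CCGGAA in 8 (14.5% of all) and CACGTG in 7 (6.34% of all). E-boxes lay in promoters of HNRNPA3, HNRNPD, HNRNPDL, HNRNPH2, HNRNPH3 and HNRNPM, of which HNRNPD fell, HNRNPH2 rose and the others did not pass the test. A match is a run of letters and not a measured binding site.

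Among the classical SR proteins, SRSF4 showed the largest fall. SRSF4 (chromosome 1, 29474255 to 29508412 of GRCh37, minus strand, 6 exons) is a longer family member with paired RNA recognition motifs. Its level was 132, 138 and 155 CPM (lowest, median and highest) in DMSO and 102, 108 and 115 CPM in PBKi. All PBKi samples lay below all DMSO samples, and DMSO replicate 5 was the highest of all. It fell by 22.8%, a log2 fold change of -0.37 (standard error, SE, 0.051, adjusted p = 1.6e-05). The same value of -0.37 was found within each set of replicates, and it stayed between -0.39 and -0.34 with each sample left out. Only 0.663% of the 40-base stretches of its transcript occurred elsewhere in the genome.

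SRSF7 (chromosome 2, 38970741 to 38978636, minus strand), a zinc knuckle SR protein that also acts in mRNA export, was at 148, 167 and 209 CPM in DMSO and 122, 143 and 164 CPM in PBKi. The DMSO samples fell apart, since replicates 1 to 3 lay above replicates 4 to 6, and the groups overlapped. The log2 fold change was -0.29 (SE 0.091, adjusted p = 0.0175). Within replicates 1 to 3 it was -0.36, and within replicates 4 to 6 it was -0.18 (adjusted p = 0.141). Without PBKi replicate 4 the adjusted p was 0.0547, and without PBKi replicate 6 it was 0.0565. SRSF3 (chromosome 6, 36562130 to 36573377, plus strand), the smallest SR protein and a regulator of mRNA export and 3′ end choice, was at 415, 487 and 545 CPM in DMSO and 364, 419 and 452 CPM in PBKi. The ranges overlapped here too. Its log2 fold change was -0.23 (SE 0.070, adjusted p = 0.0135), with -0.27 and -0.17 within replicates 1 to 3 and 4 to 6. The adjusted p was 0.0512 without PBKi replicate 6.

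SRSF9, an SR protein close to SRSF1, had the highest level per length of the SRSF genes, at 232 ± 4.16 RPKM (SD, n = 6) in DMSO. RPKM here is CPM per kilobase of the canonical transcript. It is not corrected for stretches that occur elsewhere in the genome or overlap other genes, whose reads can be lost. Ranks of level per length do not take this into account. In CPM it was at 261, 267 and 275 in DMSO and 203, 232 and 242 in PBKi, without overlap. The DMSO samples were tight, with a coefficient of variation of 1.79%. The log2 fold change was -0.23 (SE 0.049, adjusted p = 0.00114), with -0.27 within replicates 1 to 3 and -0.18 within 4 to 6. On the other strand, GATC covers 42.6% of its transcript, and the strand setting is not stated. If strand was not used, reads that match both genes there were counted for neither. GATC itself was at 31.2 CPM in DMSO and did not pass the test (log2 fold change -0.08).

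SRSF2, which is recurrently mutated in myeloid malignancy, was second per length at 167 ± 28.3 RPKM (SD, n = 6) in DMSO. It was at 249, 321 and 386 CPM in DMSO and 252, 296 and 337 CPM in PBKi, with overlap throughout. Its log2 fold change of -0.12 (SE 0.097, adjusted p = 0.346) did not pass the test. MFSD11 on the other strand covers 30.1% of its transcript and was higher in PBKi (log2 fold change 0.20, adjusted p = 0.0271). SRSF2 was among the most variable members within DMSO, with a coefficient of variation of 16.9%, beside a median of 6.38% over the 30 members of at least 40 CPM.

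Of the remaining SRSF genes, SRSF10, which represses splicing when dephosphorylated in heat shock, fell without overlap (159 ± 8.08 to 136 ± 9.20 CPM, SD, n = 6, log2 fold change -0.23). Of its 40-base stretches, 92.0% also occur elsewhere in the genome, and the part of such copies in its value was not tested. SRSF1, the archetype of the family, fell by 8.16% (560 ± 11.0 to 515 ± 20.9 CPM, SD, n = 6, adjusted p = 0.0354). Its call held in 2 of the 12 fits that left out 1 sample, those without DMSO replicate 5 or PBKi replicate 5, and the adjusted p reached 0.115. The other 3 tested did not pass and their groups overlapped. SRSF5, known for its response to insulin and hypoxia, was at 121 ± 19.6 CPM in DMSO and 108 ± 13.5 CPM in PBKi (SD, n = 6, log2 fold change -0.17). It was called with the set of replicates as a covariate (adjusted p = 0.0148). SRSF11, a regulator of neuronal microexons, was at 229 ± 29.8 and 221 ± 14 CPM (SD, n = 6, -0.05). SRSF6, which is also an oncogenic SR protein in skin and other epithelia, was at 217 ± 27.2 and 214 ± 17.3 CPM (SD, n = 6, -0.02). SRSF12 had at most 5 counts in any sample and was not tested. Summed, the SRSF genes averaged 2664 ± 206 CPM in DMSO against 2374 ± 134 CPM in PBKi (SD, n = 6). The groups of these sums overlapped, with a DMSO minimum of 2475 CPM and a PBKi maximum of 2570 CPM. Of 10 SRSF genes tested 6 were lower and 0 higher, with a median log2 fold change of -0.20. That is 60% lower, beside 21.5% of all genes tested and 30.5% of genes of at least 40 CPM in DMSO.

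Among the hnRNPs, the A/B group held the gene with the highest level and the largest fall. HNRNPA2B1 (chromosome 7, 26210771 to 26241149, minus strand, 11 exons) encodes hnRNPA2 and hnRNPB1, which bind RNA during splicing, transport and m6A-linked processing. Its level per length was 525 ± 23.9 RPKM (SD, n = 6) in DMSO, the highest of all members without correction for copied stretches. In CPM it was at 1808, 1887 and 2045 in DMSO and at 1215, 1409 and 1643 in PBKi. No PBKi sample reached the lowest DMSO sample, and PBKi replicate 3 was the lowest. The log2 fold change was -0.43 (SE 0.063, adjusted p = 3.93e-05), with -0.49 within replicates 1 to 3 and -0.36 within 4 to 6.

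HNRNPA1 (chromosome 12, 54673977 to 54680872, plus strand, 11 exons) encodes a core hnRNP that blocks exon inclusion and shuttles to the cytoplasm. It was at 617, 651 and 693 CPM in DMSO and 454, 534 and 575 CPM in PBKi. The groups did not overlap. Its log2 fold change was -0.31 (SE 0.059, adjusted p = 0.000373) and was -0.31 in each set of replicates. Of its 40-base stretches, 42.5% occur elsewhere. The 65 HNRNPA1 pseudogenes left out summed to 10.3 ± 0.706 CPM in DMSO against 8.77 ± 1.09 CPM in PBKi (SD, n = 6). HNRNPA3 (log2 fold change -0.11), HNRNPAB (-0.10), HNRNPA0 (-0.08), HNRNPA1L3 (-0.24) and HNRNPA1L2 (-0.05) did not pass the test, the last pair at 1.26 and 1.44 CPM in DMSO. Of the HNRNPA3 transcript, 59.8% is overlapped by NFE2L2 on the other strand, and 41.2% of its 40-base stretches occur elsewhere. NFE2L2 was higher in PBKi (log2 fold change 0.13, adjusted p = 0.0359).

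HNRNPC (chromosome 14, 21677295 to 21737653, minus strand) encodes the C proteins, which bind uridine tracts and keep Alu elements from being spliced in as exons. It was at 595, 642 and 729 CPM in DMSO and at 486, 520 and 561 CPM in PBKi, without overlap. The log2 fold change was -0.32 (SE 0.058, adjusted p = 0.000237), with -0.39 within replicates 1 to 3 and -0.24 within 4 to 6. Of its 40-base stretches, 38.7% occur elsewhere. HNRNPCL1 had at most 4 counts in any sample and was not tested.

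**Figure D2:**
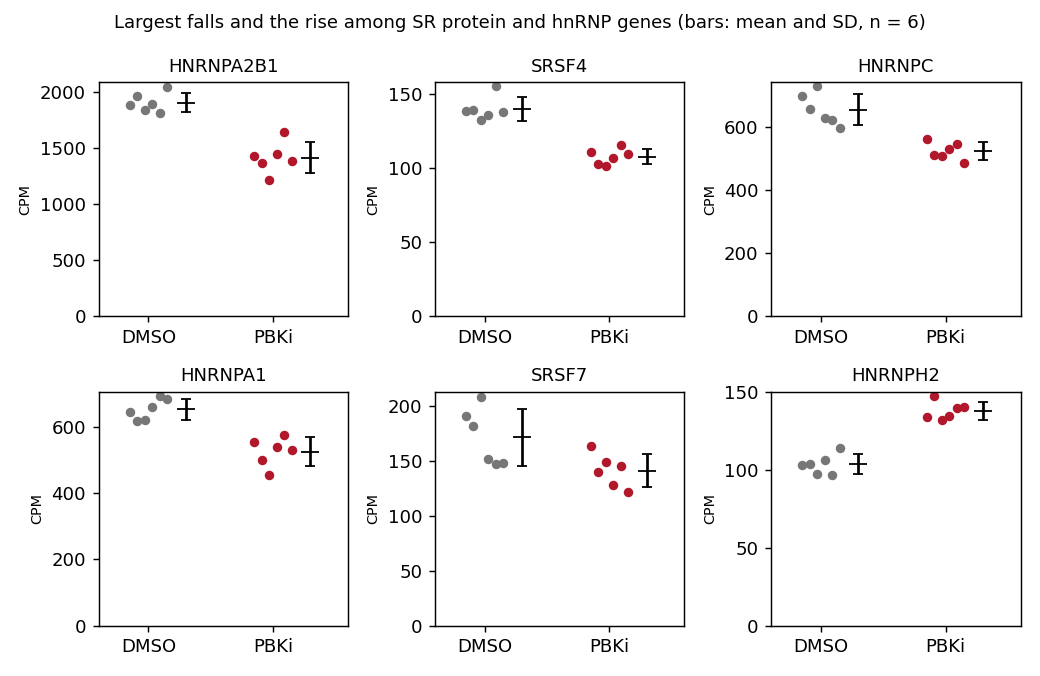
Each panel gives the CPM of 1 gene in the 6 DMSO and 6 PBKi samples, in order of replicate number, with the mean and SD beside them and the axis from 0. The PBKi points lay below the DMSO points without overlap for HNRNPA2B1, SRSF4, HNRNPC and HNRNPA1, overlapped them for SRSF7, and lay above them for HNRNPH2.

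HNRNPK and HNRNPL came next of the HNRNP genes per length, at 311 ± 4.85 and 267 ± 9.56 RPKM (SD, n = 6) in DMSO. HNRNPK (chromosome 9, 86582998 to 86595546, minus strand) binds cytidine-rich RNA through KH domains. It was at 885, 897 and 917 CPM in DMSO and 791, 822 and 864 CPM in PBKi, without overlap. The change was small, a log2 fold change of -0.12 (SE 0.044, adjusted p = 0.0344), with -0.14 within replicates 1 to 3 and -0.09 within 4 to 6. With each sample left out in turn, the call held in 2 of 12 fits, those without DMSO replicate 1 or 5, and the adjusted p reached 0.105. Of its 40-base stretches, 44% occur elsewhere. HNRNPL (chromosome 19, 39327010 to 39342987, minus strand) binds CA repeats, and 28.7% of its stretches occur elsewhere. It was at 547, 573 and 601 CPM in DMSO and 461, 493 and 541 CPM in PBKi, again without overlap. Its log2 fold change was -0.21 (SE 0.052, adjusted p = 0.00337), with -0.23 and -0.18 in the sets of replicates.

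Of the other hnRNPs, HNRNPR (log2 fold change -0.17), HNRNPUL2 (-0.22), HNRNPF (-0.16) and HNRNPD (-0.13) fell. HNRNPR binds neuronal and 7SK RNAs, HNRNPUL2 acts in the DNA damage response, HNRNPF binds G tracts as HNRNPH1 does, and HNRNPD is the AU-rich element binding protein AUF1. HNRNPR kept its call in all 12 fits that left out 1 sample. HNRNPUL2 lost it without DMSO replicate 4 or 6 or PBKi replicate 1, 2 or 3 (adjusted p up to 0.080), HNRNPD without DMSO replicate 4 or any PBKi replicate but 5 (up to 0.0954), and HNRNPF without DMSO replicate 1, 2 or 3 or PBKi replicate 2, 3, 4 or 6 (up to 0.0864). HNRNPUL2 shares 45.9% of its transcript with the readthrough gene HNRNPUL2-BSCL2, which had at most 8 counts in any sample and was not tested. The other 7 did not pass and their groups overlapped. HNRNPH1 was at 470 ± 47.1 CPM in DMSO and 434 ± 27.8 CPM in PBKi (SD, n = 6, log2 fold change -0.12). HNRNPU, a scaffold protein that binds both RNA and chromatin, was at 669 ± 45.2 and 713 ± 43.1 CPM (SD, n = 6, 0.09). HNRNPM, a regulator of splicing in epithelial to mesenchymal transition, was at 447 ± 35.2 and 424 ± 30.9 CPM (SD, n = 6, -0.07). HNRNPH3 was at 159 ± 4.61 and 169 ± 9.04 CPM (SD, n = 6, 0.09). HNRNPLL, the regulator of CD45 splicing in lymphocytes, was at 48.2 ± 1.63 and 48.9 ± 3.39 CPM (SD, n = 6, 0.02). HNRNPDL (-0.13) and HNRNPUL1 (-0.09) also had negative log2 fold changes. With the set of replicates as a covariate, HNRNPDL and, of the A/B group, HNRNPA3 were called (adjusted p = 0.0471 and 0.0372). Summed, the HNRNP genes averaged 8992 ± 95.2 CPM in DMSO against 7915 ± 415 CPM in PBKi (SD, n = 6), without overlap. HNRNPA2B1 alone averaged 1905 CPM of this sum in DMSO and 1416 CPM in PBKi. Of the 22 HNRNP genes tested, 9 were lower and 1 was higher, with a median log2 fold change of -0.12. The share called was 45.5%, beside 41.7% of all genes tested and 46.5% of genes of at least 40 CPM in DMSO. The share lower was 40.9%, beside 21.5% and 30.5%. All members together took 1.14% ± 0.0358 of the reads on genes in DMSO and 1.04% ± 0.0466 in PBKi (SD, n = 6), with overlapping groups.

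HNRNPH2 (chromosome X, 100663210 to 100669121, plus strand, 2 exons), a close relative of HNRNPH1 that binds G tracts, was the member that rose. It was at 97.2, 104 and 114 CPM in DMSO and at 132, 137 and 148 CPM in PBKi. Every PBKi sample lay above every DMSO sample. The log2 fold change was 0.41 (SE 0.051, adjusted p = 5.22e-06), a rise of 33.3%, with 0.46 within replicates 1 to 3 and 0.38 within 4 to 6. It stayed between 0.40 and 0.45 with each sample left out. A readthrough gene on the same strand, RPL36A-HNRNPH2, covers 15.8% of the transcript and had 0 counts in every sample. Reads that match both genes were counted for neither, so this 0 does not measure readthrough RNA. Of the 40-base stretches of HNRNPH2, 8.51% occur elsewhere.

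Related members were compared as log2 ratios within each sample, for 8 pairs of related genes. The pairs were chosen with earlier results of these data known, so their p-values are descriptive only. They came from a two-sided exact permutation test with p adjusted over the 8 pairs. The smallest unadjusted p that 6 against 6 samples allow is 0.00216. HNRNPH2 over HNRNPH1 rose by 0.53, from -2.18 ± 0.172 to -1.65 ± 0.108 (SD, n = 6, exact adjusted p = 0.00577). HNRNPH2 over HNRNPF rose by 0.57 (exact adjusted p = 0.00577). HNRNPLL over HNRNPL rose by 0.23 (exact adjusted p = 0.00577), with HNRNPL lower and HNRNPLL not called. Groups did not overlap in these 3 ratios. SRSF4 over SRSF6 fell by 0.36 (exact adjusted p = 0.026) and HNRNPA2B1 over HNRNPA1 fell by 0.12 (exact adjusted p = 0.0485), with overlapping groups. HNRNPUL2 over HNRNPUL1 (-0.13), SRSF7 over SRSF3 (-0.05) and HNRNPD over HNRNPDL (-0.01) had overlapping groups and did not pass (exact adjusted p = 0.182, 0.322 and 0.926). The ratios use the same samples and values as the tests of single genes and are not separate support for those calls.

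**Figure D3:**
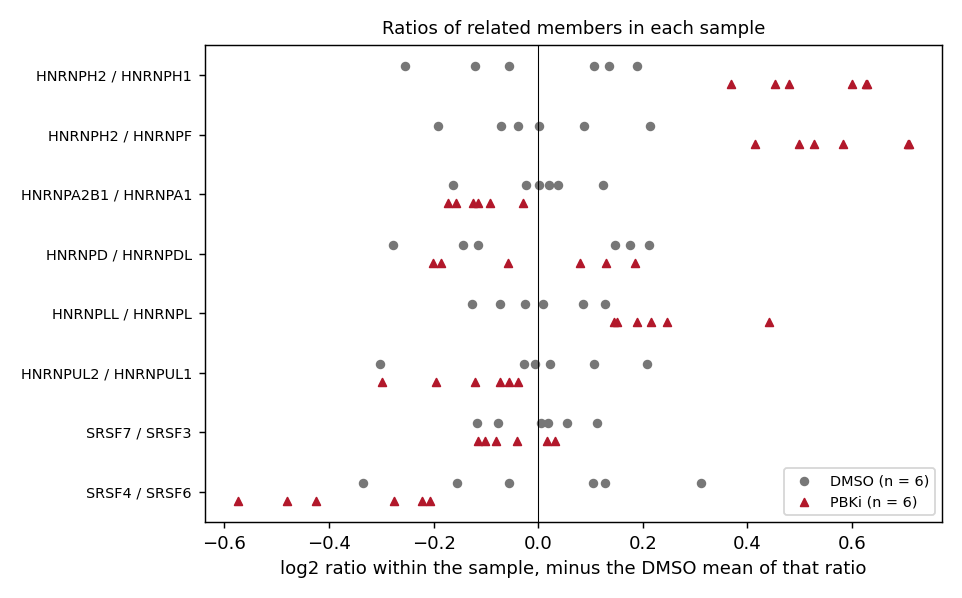
Each point is the log2 ratio of 2 related members in 1 sample, minus the mean of that ratio in DMSO, for 6 DMSO (circles) and 6 PBKi samples (triangles). The PBKi samples lay to the right of all DMSO samples for HNRNPH2 over HNRNPH1, HNRNPH2 over HNRNPF and HNRNPLL over HNRNPL, and overlapped them in the other 5 ratios.

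Neighbours that start head to head within 1000 bases were also read, by the start of the canonical transcript. There were 6 such pairs, and in 4 the log2 fold changes of both genes had the same sign. With 51.9% of all genes tested negative, unrelated pairs would also often share a sign, and this share was not tested. HNRNPA2B1 lies 999 bases from CBX3, a heterochromatin protein gene, which fell without overlap (583 ± 79.9 to 443 ± 26.8 CPM, SD, n = 6, log2 fold change -0.40, adjusted p = 0.000552). HNRNPH2 lies 297 bases from GLA, the lysosomal alpha-galactosidase A gene, which rose without overlap (34.1 ± 2.45 to 43.7 ± 2.91 CPM, SD, n = 6, log2 fold change 0.35, adjusted p = 0.000209). HNRNPK lies 590 bases from RMI1, which fell (log2 fold change -0.19, adjusted p = 0.0295). HNRNPA1 lies 604 bases from CBX5, which did not pass the test (0.11, adjusted p = 0.363). HNRNPDL lies 128 bases from ENOPH1, and neither passed. SRSF2 lies 788 bases from MFSD11, where the member did not pass and the neighbour rose. These neighbours were looked up after the values were seen.

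The 2 sets of replicates had the same direction in 30 of the 32 members tested, and in all 16 called. SRSF11 and SRSF6 differed in sign. Alone, replicates 1 to 3 called 19 of the 32 members, 14 of them among the 16, beside 43.8% of all genes tested in those samples. Replicates 4 to 6 alone called 5 of the 32, HNRNPA2B1, SRSF4, HNRNPC, HNRNPA1 and HNRNPH2, beside 17.6% of all genes tested there. In this set the share of members called in either direction was thus no higher than that of all genes. By direction, 1 SRSF and 3 HNRNP genes were lower and 1 HNRNP gene higher. Of the 14345 genes tested there, 1216 were lower and 1303 higher. The median log2 fold change of all members was -0.16 within replicates 1 to 3 and -0.11 within 4 to 6, beside 0.01 and -0.02 over all genes tested.

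**Figure D4:**
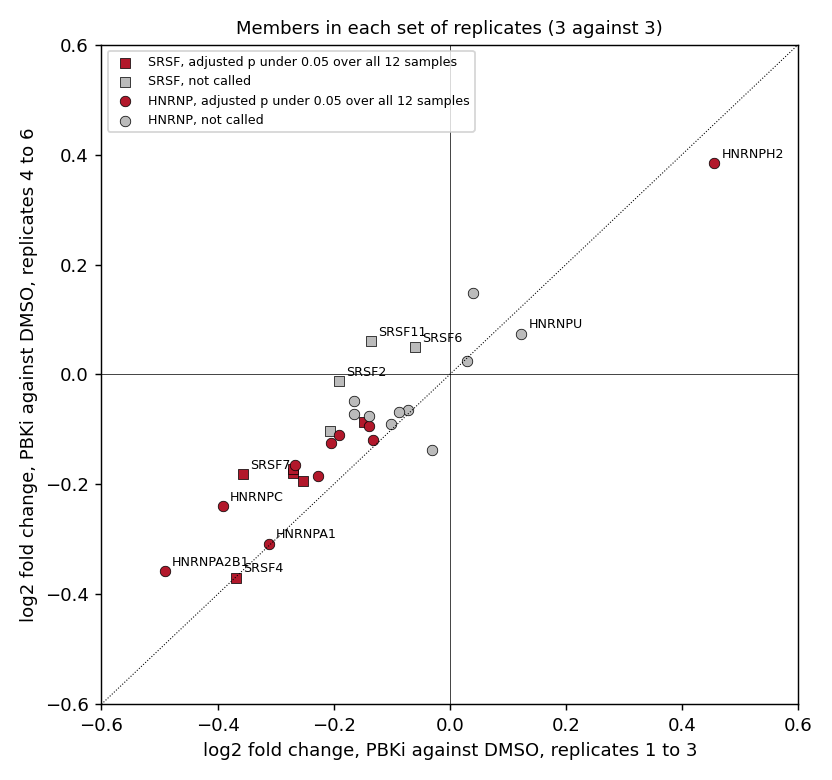
Each point is 1 of the 30 members of at least 40 CPM, by its log2 fold change in replicates 1 to 3 (x axis) and in replicates 4 to 6 (y axis), with squares for SRSF, circles for HNRNP and red for an adjusted p under 0.05 over all 12 samples. HNRNPH2 lay at 0.46 and 0.38, and HNRNPA2B1 at -0.49 and -0.36, while SRSF11 and SRSF6 lay on opposite sides of 0 in the 2 sets.

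Other splicing genes were read by 8 lists, with 112 of 113 genes tested, of which 38 were lower and 9 higher. In either direction 42.0% were called, close to the 41.7% of all genes tested. The share lower was 33.9%, beside 21.5% of all genes tested and 30.5% of genes of at least 40 CPM in DMSO. With scaling by library size alone, 20 were lower and 16 higher, beside 2402 and 3602 of all genes tested. The core U1, U2 and Sm proteins held the most lower genes of the 8 lists, with 16 of 24 lower and 0 higher (median log2 fold change -0.17), led by SNRPB (-0.58) and SNRPG (-0.55). Of 16 proteins of the U4/U6.U5 and PRP19 complexes, 3 were lower and 1 higher, among them CRNKL1 (-0.34), SNRNP40 (-0.32) and PRPF3 (0.16). Of 8 hnRNPs under other symbols 3 were lower and 0 higher, with RBMX (-0.25) and RALY (-0.21). Of 16 SR-related proteins 6 were lower and 0 higher, with RNPS1 (-0.35), a component of the exon junction complex, and THRAP3 (-0.20). Of 11 SR protein kinases and importers, CLK3 (-0.26) and CLK2 (-0.23), which phosphorylate SR proteins, were lower, and DYRK1A (0.31) and TNPO1 (0.15), the importer of hnRNPA1, were higher. Of 7 arginine methyltransferases, which modify hnRNPs, PRMT1 (-0.40), PRMT3 (-0.27) and PRMT5 (-0.19) were lower and PRMT2 (0.48) was higher. Of 20 other regulators 5 were lower, with RBFOX2 (-0.39) and KHDRBS1 (-0.25), and 2 were higher, MBNL2 (0.93) and KHDRBS3 (0.45). These rises were in genes of low level, with DMSO means of 8.55 CPM for MBNL2 and 2.64 CPM for KHDRBS3. The groups overlapped for KHDRBS3. Of 10 nonsense-mediated decay factors, 0 were lower and 3 higher, among them SMG5 (0.27) and SMG8 (0.14). All log2 fold changes in these lists that are named passed the adjusted test over the 12 samples, but 7 of these calls were lost in some of the 12 fits that omitted a sample. CLK2 lost its call without DMSO replicate 1, 2 or 3 or PBKi replicate 2, 4, 5 or 6 (adjusted p up to 0.116), and PRMT3 without the same samples (up to 0.0972). PRPF3 lost it without DMSO replicate 1, 4, 5 or 6 or PBKi replicate 1, 2 or 3 (up to 0.0822), and TNPO1 without DMSO replicate 1, 4 or 5 or PBKi replicate 3 or 5 (up to 0.0717). RALY lost it without DMSO replicate 1 or PBKi replicate 2, 3 or 6 (up to 0.0682), KHDRBS3 without DMSO replicate 6 or PBKi replicate 3 (up to 0.0860), and SMG8 without DMSO replicate 1 or 3 (up to 0.0591). The lists were counted and not tested as sets, and the members of a list share samples and are not replicates.

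**Figure D5:**
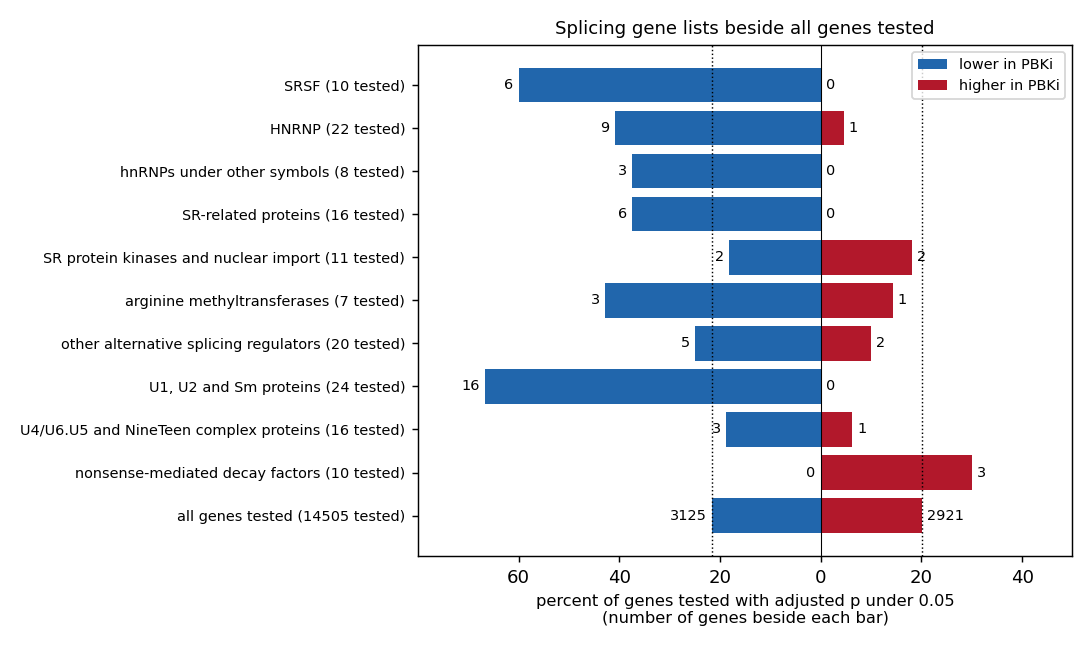
Bars give the percent of the genes tested in each list with an adjusted p under 0.05, lower (left) and higher (right) in PBKi, with the number of genes beside each bar and dotted lines at the shares of all genes tested (21.5% and 20.1%). The U1, U2 and Sm proteins (16 of 24) and the SRSF genes (6 of 10) had the longest bars to the left, and the decay factors had none there.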

How the data were processed

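RNAseq was of C4-2 cells given DMSO or 1 µM PBKi, 6 samples each. The authors aligned reads of 40 bases to GRCh37 with TopHat2 2.0.4 and counted them with HTSeq 0.5.3p9 (versions from the submitters' processing notes), and the deposited values are raw counts per gene and lane. The 47 lane files were summed by sample, with 4 lanes each except 3 for DMSO replicate 5. The strand setting is not given in the sources used here. Labels name another RNA kit than the study's methods.

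A gene needed 10 counts or more in 6 samples or more (14505 genes). The test was edgeR 4.0.16 in R 4.3.3 with TMM factors and its quasi-likelihood test, with Benjamini-Hochberg adjustment at 0.05. Standard errors came from the fold change and F statistic. Log2 CPM for exact tests had a prior count of 2. Alternatives included DESeq2 1.42.0 and limma-voom (limma 3.58.1). Scripts were tested on simulated data. Symbols and GRCh37 coordinates came from GENCODE 44, newer than the annotation the authors used. Counting error is largest for genes of few counts: 30 members had at least 428 counts in every sample. Members described by sample were the 5 largest falls, the rise, the 3 of highest RPKM per family and HNRNPA1 and SRSF3. Each other list gave up to 2 rises and 2 falls, and PRMT5 and SMG8 were named after their values were seen. One gene of these lists that the rule would name is not reported here. The members, lists and pairs were chosen with earlier results of these data known.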

Additional observations from a re-analysis of the deposited data

Results flagged for a closer look

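In 4 of the 64 groups of 6 samples examined for the 32 members tested, the highest sample stood apart from the other 5 by Dixon's criterion at 95%, which chance gives in about 5% of groups. All 4 were DMSO samples. SRSF4 was at 155 CPM in DMSO replicate 5 with the next sample at 139. HNRNPA3 was at 328 CPM in DMSO replicate 6 with the next at 298.2. HNRNPA0 was at 254 CPM in DMSO replicate 5 with the next at 224. HNRNPM was at 514 CPM in DMSO replicate 5 with the next at 451. DMSO replicate 5 had 3 lanes and the fewest reads on genes, 9663203, and the part of depth in these values was not tested. SRSF4 kept its call without DMSO replicate 5, and the other 3 genes were not called with or without it.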

How the results depend on the processing

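With replicates 4 to 6 alone, 1216 genes were lower and 1303 higher over all genes, and the lower counts were 1 for SRSF, 3 for HNRNP and 13 for the other splicing lists, with 3 higher in the latter. This setting has 3 samples a group. With library size only, in place of TMM factors, the median of all genes moved from -0.01 to 0.03, with 2402 genes lower and 3602 higher. The lower counts were then 3 for SRSF, 5 for HNRNP and 20 for the other lists. The higher counts were 3 for HNRNP and 16 for the other lists, and the HNRNP median was -0.071. The cause was not tested. Without a filter on low counts, 5 HNRNP and 25 other splicing genes were lower. With the set of replicates as a covariate there were 14 higher genes in the other lists. Leaving out each sample in turn gave 3 to 6 lower SRSF genes (3 without PBKi replicate 6), 5 to 9 lower HNRNP genes (5 without PBKi replicate 2 or 3) and 22 to 34 lower genes in the other lists (25, 24 and 22 without PBKi replicates 3, 4 and 6). Of the 16 called members, 5 were called under every one of the 23 alternatives (HNRNPA2B1, SRSF4, HNRNPC, HNRNPA1 and HNRNPH2) and 0 changed sign. DESeq2, limma-voom, RLE factors and the covariate kept all 16, and the covariate added SRSF5, HNRNPDL and HNRNPA3 as lower. Sign changes occurred only in members not called. SRSF11 was 0.060 in replicates 4 to 6. SRSF6 was 0.029 with library size only, 0.0024 with a CPM of at least 1 in all samples, and 0.050 in replicates 4 to 6. With 1 sample left out, log2 fold changes ranged from -0.077 to 0.012 for SRSF11, -0.10 to 0.083 for HNRNPA1L2, -0.043 to 0.039 for SRSF6 and -0.0068 to 0.054 for HNRNPLL.

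The samples share only a replicate number. Deviations of same-numbered samples correlated at 0.0887 to 0.299, over 0.1 in 5 of 6 pairs, and 8 of 12 samples correlated best with their own number, a hint from the data and not the design. With the replicate number as a block, 7 SRSF and 11 HNRNP genes were lower and 1 HNRNP gene higher, including all 16 called without it and, in addition, SRSF5, HNRNPDL and HNRNPA3 (adjusted p = 0.0233, 0.0433 and 0.0407), 15 genes of the other lists were higher, and 3803 genes were lower and 3485 higher in all. Depth limits HNRNPCL1 and SRSF12, with at most 5 counts in any sample, and HNRNPA1L2 and HNRNPA1L3. HNRNPUL2-BSCL2 had at most 8 counts in any sample, but other counted genes overlap 100% of its transcript. Reads that match more than 1 gene were not counted, so its low count does not measure its level.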
